A study of Mus musculus with 3 samples.

Results

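The genes described here encode the core machinery of pre-mRNA splicing and its best known regulators. They were chosen by symbol, as every gene whose name starts with Srsf, Hnrnp, Snrp, Snrnp, Sf3a, Sf3b, Prpf, Lsm, U2af or Rbm, with a digit after Srsf, Lsm and Rbm. The rule took 122 of 23337 gene symbols, in 123 rows, and for Rbm31y, which had several rows, the row of highest mean was kept. By family there were 11 SR genes, 18 hnRNP genes, 19 snRNP genes, 8 SF3 genes, 3 U2AF genes, 13 PRPF genes, 12 LSM genes and 38 RBM genes. RNA was measured by sequencing in CD4+ T cells labelled Th1, the helper subset defined by T-bet and interferon gamma. All mice were wild-type C57/Bl6j aged 7 weeks. The lymphoid group held 2 libraries, titled as spleen and with spleen, lymph nodes and draining lymph nodes as their tissue, and the tumour group held 1 library of cells from B16-F10 tumours, a melanoma line that grows in this strain. The series states an interest in gene expression and alternative splicing in the tumour environment. The files hold 1 value per gene, so the use of single exons or transcripts was not analysed here.

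Splicing removes introns in a large RNA and protein machine, the spliceosome, which assembles anew on each intron. Its small nuclear RNAs (U1, U2, U4, U5 and U6) each carry a ring of Sm or LSm proteins and a few particle-specific proteins. U1 marks the 5′ splice site, U2AF and the SF3 complexes of U2 mark the 3′ splice site and the branch point, and the PRPF proteins build and rearrange the particle that carries out catalysis. SR proteins mostly favour and hnRNP proteins mostly oppose the use of weak exons, and several RBM proteins act on either side. In T cells the best known target is Ptprc, which encodes CD45 and loses variable exons after activation through hnRNP L and its relative hnRNP LL.

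The libraries were unequal, and this limits every gene below. Values were FPKM (fragments per kilobase of transcript, relative to library depth), divided here by median-of-ratios size factors of 1.29, 1.33 and 0.579 for lymphoid libraries 1 and 2 and the tumour library. The depth estimated from the smallest steps between values was about 11400000, 15430000 and 3260000 fragments. Odorant and vomeronasal receptor genes, which T cells should lack, averaged 0.0100, 0.0434 and 0.261 scaled FPKM. The labelled cell type was checked on 7 T cell markers, which summed to 655, 659 and 617 scaled FPKM, and on 8 Th1 genes, at 176, 164 and 174, of which 3 lay above and 4 below both lymphoid libraries in the tumour library. Both defining genes were among the lower ones, with Ifng at 12.9 and 11.96 scaled FPKM and at 4.53, and Tbx21, which encodes T-bet, at 18.01 and 20.2 and at 12.9. Stat4 and Il18r1 were higher in the tumour library, at 42.8 and 36.7. The 2 CD8 chain genes summed to 0.558, 0.814 and 5.27. Both lay above both lymphoid libraries in the tumour library, Cd8b1 at 4.77 and Cd8a at 0.503. Of 9 myeloid markers 7 did so too, with sums of 1.69, 1.42 and 11.5, while C1qb and C1qc were at 0 in the tumour library. Those 7 markers ran from 0.133 (Csf1r) to 3.95 (Itgam) in the tumour library, beside the receptor-gene mean of 0.261. The 7 melanocyte and B16 markers summed to 1.33, 1.43 and 2.57, with 3 above and 1 below both lymphoid libraries in the tumour library, where Mlana and Slc45a2 were at 0. B cell markers summed to 0.757, 0.530 and 0.646, and fibroblast and endothelial markers to 9.80, 8.90 and 8.69. The erythroid gene Hba-a1 was at 1.22, 1.08 and 0. The part of these other cells in the results below was not tested. In bulk RNA, fewer cells of one type and less RNA per cell cannot be told apart. Whether each lymphoid library had its own mice is not in the labels, and p-values here reflect only how far this pair of libraries differed, for technical or other reasons.

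Splicing genes differed little between tumour and lymphoid cells once the libraries were scaled. Of the 122 genes 112 reached a mean of 1 FPKM and were tested, with differences on the log2(scaled FPKM + 1) scale, limma's moderated test and Benjamini-Hochberg adjustment over all 9800 genes tested. At an adjusted p under 0.05, 6 of 112 were called (5.36%), against a background of 21.9% of all genes tested. Snrnp35 and Sf3b5 were higher in the tumour library, against a background of 12.7%, and Snrpe, Lsm3, Snrpb and Snrpa were lower, against 9.17%. At an unadjusted p under 0.05 there were 23 (20.5%), against 37.0% of all genes tested. Of the 96 splicing genes whose mean reached 5 FPKM, 5 were called in this fit over all 9800 genes, beside 15.2% of all such genes. A separate fit of such genes alone called fewer splicing genes and is given with the other settings below. The SD of the differences was 0.36 over the 112 genes and 0.78 over all genes tested, and the medians were -0.05 and -0.01. Between the lymphoid libraries the median absolute difference was 0.190 and 0.145 in the same order, and the SD 0.254 and 0.361. A wider gap between these libraries raises the SE of a gene. The share called is therefore not a measure of the size of differences alone.

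The tumour value lay above both lymphoid values for 31 of the 112 genes (27.7%, against 41.3% of all genes tested), below both for 47 (42.0%, against 42.6%) and between them for 34. A difference of at least 2-fold from both lymphoid libraries was reached upwards by Snrnp35 alone, against a background of 8.76%, and downwards by 0 genes, against 5.96%. At 1.5-fold, Lsm2, Prpf40b, Sf3b5 and Snrnp35 lay higher (3.57%, against 15.6%), and Lsm10, Lsm3, Lsm4, Rbm43, Snrpa, Snrpb and Snrpe lay lower (6.25%, against 12.3%). These counts rest on the scaling. In the values as deposited 106 of the 112 genes were called lower, beside 77.8% of all genes tested, and 0 were called higher, beside 4.74%. Among genes named below, 28 that were not called and lay higher after scaling were called lower as deposited. On that scale the median difference was -1.11 for the splicing genes and -0.96 for all genes tested, and with scaling to library totals it was 0.65 and 0.62. These sets differ in level, with a median of 14.4 FPKM for the splicing genes and 5.31 for all genes tested. Where the mean reached 5 FPKM, the median difference was -1.18 for splicing genes and -1.12 for all such genes as deposited. With library totals it was 0.65 and 0.62. With library totals the 4 lower genes were no longer called, with differences of -0.26 for Snrpe, -0.10 for Lsm3 and -0.01 for both Snrpa and Snrpb. Those totals were mostly small RNA genes, which held 81.1% and 83.5% of the summed FPKM in lymphoid libraries 1 and 2 and 67.5% in the tumour library.

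**Figure D1:**
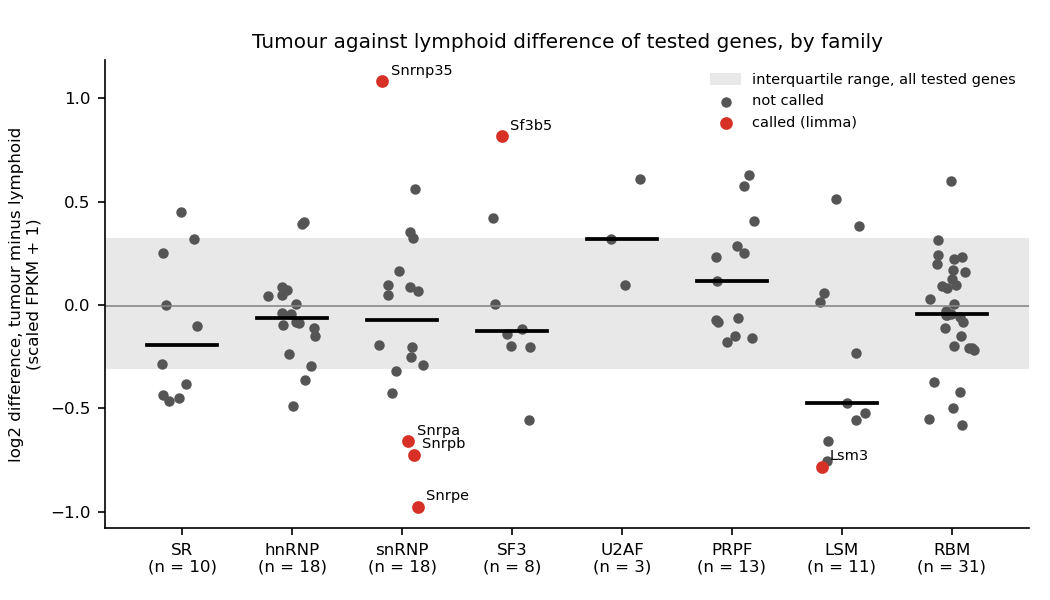
Log2 difference between the tumour library and the mean of the 2 lymphoid libraries on the log2(scaled FPKM + 1) scale, 1 point per tested gene, grouped by family. Black bars are family medians, from -0.47 (LSM) to 0.32 (U2AF), the grey band is the interquartile range of all 9800 genes tested, and red points are the 6 genes called by limma.

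The Sm ring, the 7 proteins shared by the U1, U2, U4 and U5 particles, showed members moving apart. Snrpe, which encodes Sm protein E, stood at 45.2 and 41.6 scaled FPKM in the lymphoid libraries and at 21.6 in the tumour library. Its difference was -0.98 (SE 0.18, limma adjusted p = 0.0184), or 0.477 and 0.518 times the lymphoid values. Snrpb, which encodes the B and B′ proteins, was at 27.8 and 32.1 and at 17.7, a difference of -0.72 (SE 0.19, limma adjusted p = 0.0458). Both therefore fell below both lymphoid libraries.

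Other ring genes lay level or higher. Snrpg, for Sm protein G, was at 40.7 and 34.4 scaled FPKM and at 55.7 in the tumour library, above both, but with a limma adjusted p of 0.104 for a difference of 0.56. Snrpd2 was at 18.9 and 27.5 and at 29.5, also above both by a small margin. Snrpf (22.5 and 31.96, then 30.2) and Snrpd1 (8.33 and 9.79, then 9.51) lay between the lymphoid values. Snrpd3, at 22.4 and 30.3 and then 21.8, lay just below both. The SD of the difference over the 7 tested ring genes was 0.57, and their median was 0.07, so the ring as a whole had no common direction. Ratios of pairs within a library do not depend on the scaling. Snrpe stood to Snrpg as 1.11 and 1.21 in the lymphoid libraries and as 0.387 in the tumour library, and Snrpb to Snrpd2 as 1.47, 1.17 and 0.600. These pairs were chosen after their values had been seen. Of the same family, the neuronal Sm gene Snrpn was near 0 in the lymphoid libraries and at 0.280 in the tumour library, about the level of the receptor genes, and was not tested.

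Among proteins specific to 1 particle, 1 gene of U1 and 1 of the minor spliceosome were called. Snrpa, for the A protein of U1, which binds a loop of its RNA, was at 7.96 and 9.56 scaled FPKM and at 5.16, a difference of -0.66 (SE 0.17, limma adjusted p = 0.0494), below both lymphoid libraries and close to the threshold. With other pseudocounts it missed it (limma adjusted p = 0.0547 and 0.0529), as it did without a filter (0.117). Its U1 partners did not share the shift. Snrnp70, for the U1-70K protein, was at 29.1 and 45.9 and at 39.2, and Snrpc, for the C protein, at 16.2 and 20.6 and at 18.9, both between the lymphoid values. The ratio of Snrpa to Snrpc was 0.492, 0.464 and 0.272. In U2, Snrpb2 (12.8 and 11.6, then 15.5) lay above both lymphoid libraries and Snrpa1 (6.16 and 8.77, then 5.24) below both, and neither was called.

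Snrnp35 encodes a protein of the U11/U12 particle, which serves the rare minor-class introns. Its scaled FPKM was 0.919 and 0.889 in the lymphoid libraries and 3.03 in the tumour library, 3.30 and 3.41 times higher. The difference of 1.08 (SE 0.15, limma adjusted p = 0.00843) was the largest of the 112. It rested on about 6.38 tumour fragments. The other U11/U12 genes lay elsewhere. Snrnp25 was at 2.59 and 4.16 and at 2.73, between the lymphoid values, and Snrnp48 was at 11.5 and 15.3 and at 10.7, below both. In U5 and the tri-snRNP, the U4/U6 helicase gene Snrnp200 was at 19.0 and 20.6 and at 17.2, and Snrnp40 and Snrnp27 had differences of 0.09 and -0.32, with no calls.

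The called snRNP genes lay on different chromosomes in GRCm38, the assembly of mm10, by GENCODE release M21. They were Snrpe at chr1:133603871-133610291 (minus strand), Snrpb at chr2:130171414-130179403 (minus), Snrpa at chr7:27187005-27196271 (minus) and Snrnp35 at chr5:124483134-124491124 (plus). The 250 bases before the RefSeq start of 3 of them (GRCm38.p6) are shown as the promoter sequence of genes that were called. Capitals mark motifs searched on both strands, namely the GC box GGGCGG, the TATA box with the letters TATAAA and the E-box with the letters CACGTG, and the windows were chr7:27196272-27196521 on the minus strand, chr1:133610281-133610530 on the minus strand and chr5:124482905-124483154 on the plus strand.
Snrpa: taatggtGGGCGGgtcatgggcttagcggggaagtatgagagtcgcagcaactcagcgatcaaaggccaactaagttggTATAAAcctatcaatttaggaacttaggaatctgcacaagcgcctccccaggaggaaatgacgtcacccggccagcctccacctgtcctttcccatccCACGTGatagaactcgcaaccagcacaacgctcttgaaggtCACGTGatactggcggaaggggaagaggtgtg
Snrpe: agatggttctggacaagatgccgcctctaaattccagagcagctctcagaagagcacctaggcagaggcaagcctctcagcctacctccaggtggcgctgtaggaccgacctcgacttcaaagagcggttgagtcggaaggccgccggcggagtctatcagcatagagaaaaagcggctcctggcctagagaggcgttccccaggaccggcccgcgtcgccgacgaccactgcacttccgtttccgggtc
Snrnp35: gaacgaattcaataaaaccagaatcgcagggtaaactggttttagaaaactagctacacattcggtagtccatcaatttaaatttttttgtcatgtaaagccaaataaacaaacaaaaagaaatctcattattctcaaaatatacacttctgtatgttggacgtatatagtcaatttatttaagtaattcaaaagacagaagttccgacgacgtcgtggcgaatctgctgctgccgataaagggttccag
The Snrpa window held a GC box, a TATA box and E-boxes, while the letters of these motifs, and those of the ETS core, CCAAT box and NRF1 core, were not found in the Snrpe and Snrnp35 windows. GC content was 53.6%, 60.8% and 34.8% in the order printed. A match is a description of letters, not a bound site.

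The LSm proteins are relatives of the Sm proteins. LSm2 to LSm8 form the ring of U6, and LSm1 to LSm7 a cytoplasmic ring that promotes decapping of mRNA. This family had the lowest median difference, -0.47 over 11 tested genes, with 7 below both lymphoid libraries (42.6% of all genes tested) and 2 above (41.3%). Of the 11 genes 6 had a transcript under 1000 nt, and over all genes tested such short genes had a median of -0.13. Lsm3 was at 15.5 and 18.4 scaled FPKM and at 9.40 in the tumour library, and fell by 0.78 on the log2 scale (SE 0.18, limma adjusted p = 0.0359). It lies at chr6:91515928-91522625 on the plus strand. Lsm4 (13.5 and 18.4, then 8.92) and Lsm5 (20.1 and 24.3, then 13.6) had differences of -0.76 and -0.66 and were not called, with limma adjusted p of 0.0666 and 0.0648.

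The rest of the ring did not follow. Lsm2 was at 3.85 and 3.77 scaled FPKM and at 5.87, above both, and Lsm6 at 3.22 and 3.72 and at 4.81, also above both, with limma adjusted p of 0.0584 and 0.141. Lsm7, at 13.7 and 20.6 and at 17.5, lay between. The ratio of Lsm3 to Lsm2 was 4.02, 4.88 and 1.60. Outside the nuclear ring, Lsm1, the subunit that sets the decay ring apart, was at 1.95 and 2.57 and at 1.34. Lsm10, a part of the U7 particle that processes histone mRNA, was at 2.41 and 2.51 and at 1.41, and Lsm12 at 12.2 and 9.84 and at 7.14. All 3 lay below both lymphoid libraries without a call, and Lsm1 and Lsm10 rested on about 6.71 and 2.14 tumour fragments. Lsm14a, a P-body protein, was at 19.2 and 18.6 and at 15.9. Of the 11 genes 7 had an unadjusted p under 0.05, beside 37.0% of all genes tested, and 1 was called, beside 21.9%.

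**Figure D2:**
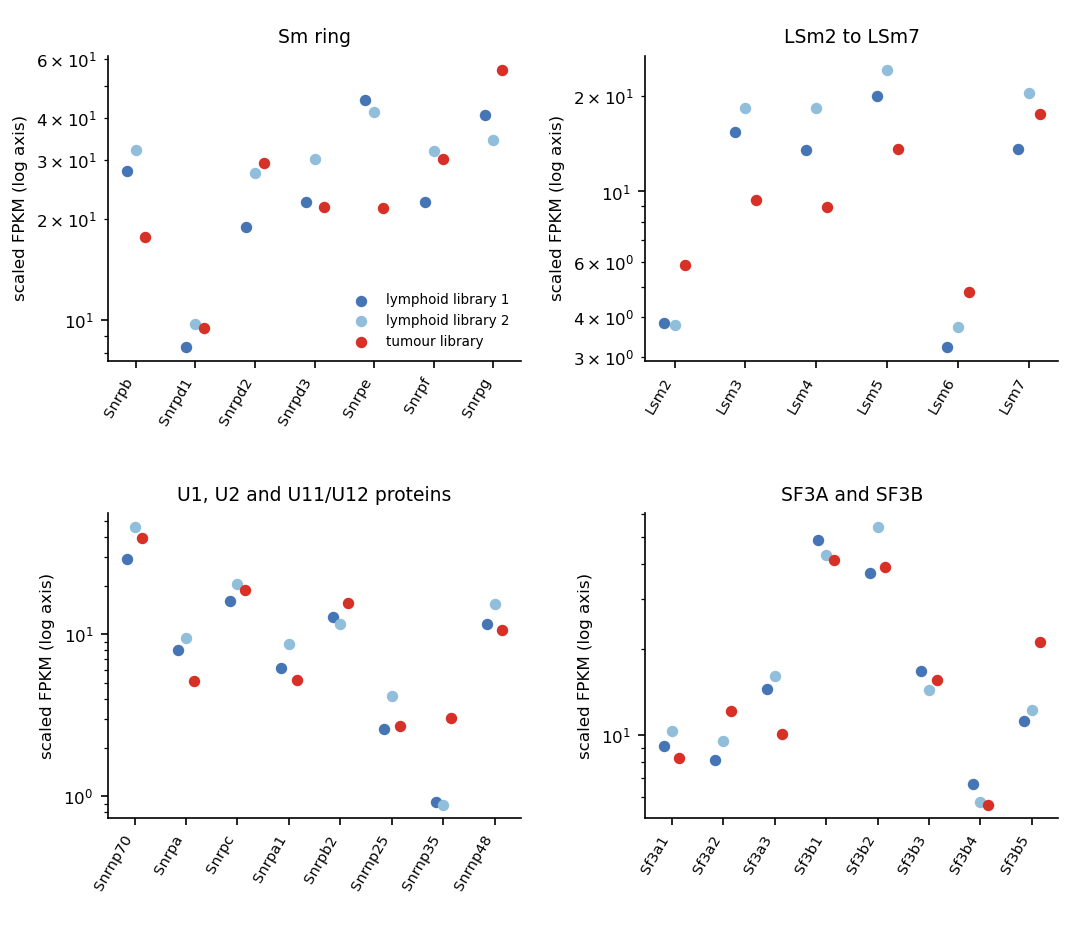
Scaled FPKM in each library (log axes) for the genes of the Sm ring, the LSm2 to LSm7 genes, the U1, U2 and U11/U12 proteins and the SF3A and SF3B complexes. Tumour points for Snrpe, Snrpb, Snrpa and Lsm3 lie below both lymphoid points, and those for Snrnp35 and Sf3b5 above both.

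The SF3A and SF3B complexes hold U2 on the branch point. Their central subunit Sf3b1, which grips the branch point helix, was at 48.6 and 43.1 scaled FPKM and at 41.4, a difference of -0.14 (limma adjusted p = 0.64). Sf3b5, the smallest SF3B protein, was at 11.2 and 12.2 and at 21.3 and rose by 0.82 (SE 0.17, limma adjusted p = 0.0242), or 1.91 and 1.75 times. It was the only called gene of the 8, beside 21.9% of all genes tested. Sf3b5 lies at chr10:13005343-13009183 on the plus strand, and stood to Sf3b1 as 0.230, 0.283 and 0.514. In the values as deposited its difference was -0.29, so that the direction holds only relative to the other genes of its library.

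The remaining subunits varied in both directions. Sf3b2, at 37.3 and 54.0 and at 39.0, and Sf3b3, at 16.7 and 14.4 and at 15.6, lay between the lymphoid values. Sf3b4 (6.70 and 5.76, then 5.66) lay just below both. In SF3A, Sf3a3 was at 14.5 and 16.1 and at 10.1 (-0.55, limma adjusted p = 0.0722), Sf3a1 at 9.11 and 10.3 and at 8.26, and Sf3a2 at 8.16 and 9.47 and at 12.1. The 3 SF3A genes thus lay on both sides of the lymphoid range, and 0 of them were called.

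U2AF is the dimer that reads the 3′ splice site, with U2af2 on the polypyrimidine tract and U2af1 on the AG. U2af1 was at 14.3 and 18.6 scaled FPKM and at 25.4, above both lymphoid libraries, with a difference of 0.61 (SE 0.21) that was not called (limma adjusted p = 0.0997). U2af2 was at 23.1 and 30.7 and at 28.6, between them. The ratio of U2af1 to U2af2 was 0.618, 0.606 and 0.889. U2af1l4, a paralogue of U2af1, was at 10.3 and 9.31 and at 12.4. All of U2af1, U2af2 and U2af1l4 share near-identical stretches with other genes, so how reads were divided among them is uncertain.

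In the PRPF family 0 of 13 genes were called by limma and 2 had an unadjusted p under 0.05. Over all genes tested these shares were 21.9% and 37.0%. The median difference of the family was 0.12. Prpf8, the scaffold of the catalytic core, was at 28.6 and 26.3 scaled FPKM and at 26.2. Prpf4b, a kinase of spliceosome assembly, was at 23.8 and 29.6 and at 25.3. Both differed by less than 0.1 on the log2 scale from the lymphoid mean. Of the 5 genes of U4/U6 and U5, 3 lay above both lymphoid libraries, Prpf6 at 12.2 and 15.2 and at 18.4, Prpf31 at 5.23 and 6.98 and at 7.28, and Prpf3 with a difference of 0.12. The other two, Prpf8 and Prpf4 (-0.16), lay below both. Prpf38a, which joins before activation, was at 7.14 and 7.89 and at 11.7 (0.58, limma adjusted p = 0.0568), and Prpf40b, a U1-associated protein, at 1.14 and 1.58 and at 2.63 (0.63, limma adjusted p = 0.0625). These 2 lay above both lymphoid libraries and just missed the threshold. Prpf19, the ubiquitin ligase of activation, was at 3.41 and 3.44 and at 4.41. Prpf18, a second-step factor, and the U1-associated Prpf39 lay just below both lymphoid values, with differences of -0.18 and -0.15.

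SR proteins bind exonic enhancers and recruit U1 and U2AF. Of 10 tested genes 0 were called by limma and 1 had an unadjusted p under 0.05, beside 21.9% and 37.0% of all genes tested. The most abundant, Srsf5, was at 77.1 and 86.2 scaled FPKM and at 111.9, above both (0.45, SE 0.20, limma adjusted p = 0.167). Srsf7 was at 19.97 and 20.05 and at 25.2, and Srsf3, which like Srsf7 also acts in mRNA export, at 23.4 and 21.3 and at 26.8. These 3 lay above both lymphoid values. Srsf1, the founding SR protein, was at 17.5 and 14.8 and at 13.03, and Srsf2, the speckle protein SC35, at 25.4 and 21.2 and at 17.6. Srsf9 was at 7.70 and 9.72 and at 6.14. Srsf10, which turns into a repressor when dephosphorylated, was at 10.98 and 10.7 and at 7.59 (-0.46, limma adjusted p = 0.0914). Along with Srsf4 these 4 lay below both, Srsf6 lay level at 18.4 and 16.9 and 17.7, and Srsf11 lay between. The ratio of Srsf5 to Srsf2 within a library was 3.04, 4.06 and 6.37.

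The hnRNP genes had the highest summed level of the 8 families, 746, 847 and 759 scaled FPKM. By limma 0 of 18 were called and 1 had an unadjusted p under 0.05, beside 21.9% and 37.0% of all genes tested. Their differences ran from -0.49 to 0.40, with an SD of 0.22, the smallest of the 8 families. Hnrnpa2b1, at 123.7 and 139.2 scaled FPKM and at 111.1, Hnrnpk, a poly-C binder, at 98.6 and 92.2 and at 85.9, and Hnrnpc, which binds uridine tracts, at 30.5 and 34.9 and at 30.1, lay just below both lymphoid libraries. Hnrnpf (103.5 and 124.0, then 106.7) and Hnrnpu, the scaffold attachment factor (81.9 and 100.1, then 85.5), lay between. Hnrnpa1, the classical antagonist of Srsf1, was at 23.99 and 21.04 and at 15.7, the lowest difference of the family (-0.49, SE 0.18), and it was not called (limma adjusted p = 0.113). The ratio of Srsf1 to Hnrnpa1 was 0.731, 0.704 and 0.828, and that of Srsf1 to Hnrnpa2b1 was 0.142, 0.106 and 0.117. Hnrnpab (30.5 and 37.8, then 45.2) and the G-tract binder Hnrnph1 (49.4 and 50.8, then 66.0) lay above both, with limma adjusted p of 0.226 and 0.188. Hnrnpul2 and Hnrnpr lay below both, with differences of -0.36 and -0.30.

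**Figure D3:**
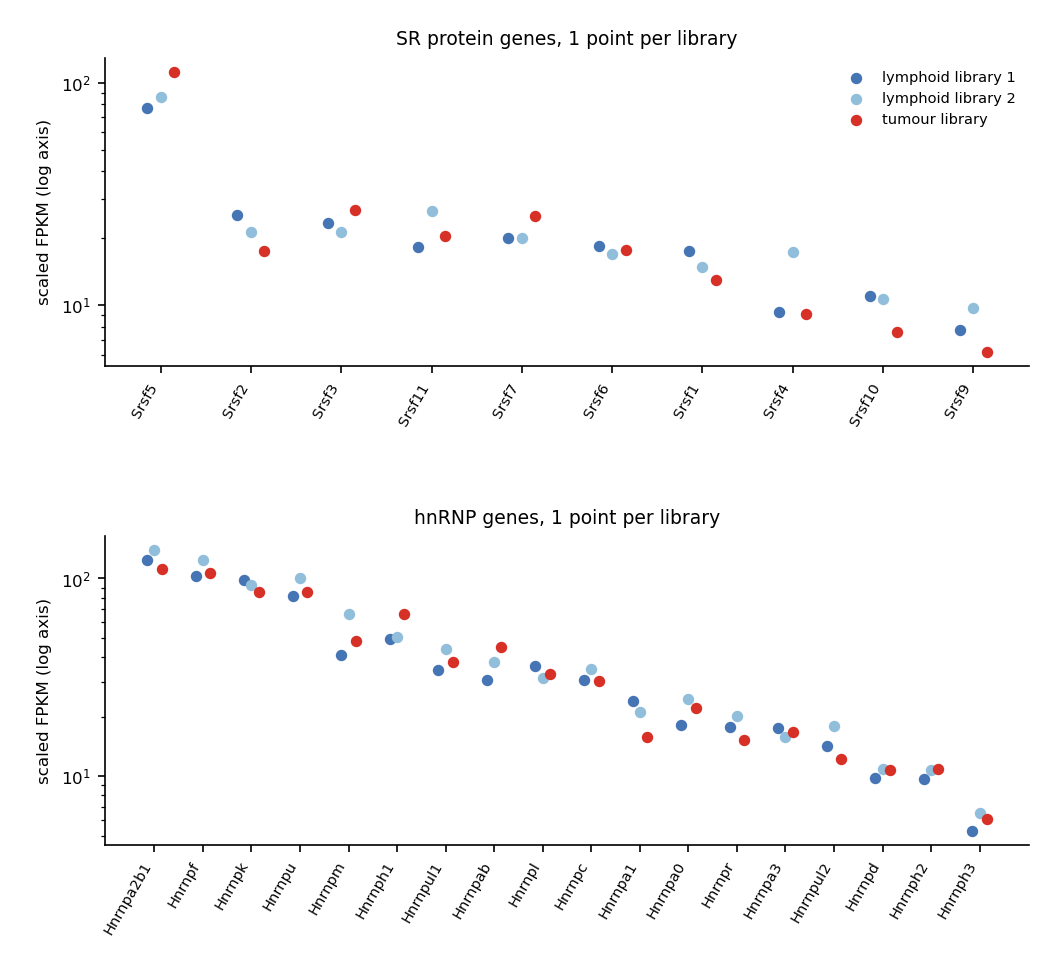
Scaled FPKM in each library (log axes) for the 10 tested SR genes and the 18 hnRNP genes, ordered by level. Srsf5 and Hnrnpa2b1 are the highest of their families, and the tumour point lies within or close to the lymphoid points for most genes.

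The regulators of CD45 splicing showed little difference. Hnrnpl was at 36.2 and 31.3 scaled FPKM and at 32.8, between the lymphoid values. Hnrnpll has a row under its older symbol Hnrpll, outside the rule by name, and was at 7.14 and 7.71 and at 7.18 (-0.04, limma adjusted p = 0.869). Ptprc itself was at 157.7 and 143.7 and at 138.9, which says nothing of its exons. Hnrpdl, another older symbol, was at 20.8 and 25.97 and at 27.7. Lsm8 was not analysed here.

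RBM proteins share an RNA recognition motif and little else. Of 31 tested genes 0 were called by limma and 4 had an unadjusted p under 0.05, beside 21.9% and 37.0% of all genes tested. Rbm39, a speckle protein and the target of sulfonamide degraders, was at 64.8 and 72.2 scaled FPKM and at 66.3, and the cold-inducible Rbm3 at 46.3 and 39.3 and at 42.8. Rbm5 (34.1 and 42.7, then 36.9), its relative Rbm10 (8.11 and 10.5, then 9.92), Rbm25 (21.4 and 34.5, then 29.2) and Rbm8a, the exon junction protein Y14 (3.33 and 4.78, then 3.83), also lay between the lymphoid values. Of the 9 spliceosome-associated RBM genes 5 lay between the lymphoid values, 2 above both and 2 below both. Rbm22, which contacts the catalytic RNA, was at 13.99 and 12.1 and at 11.9.

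Of the 31 tested RBM genes 8 lay above both lymphoid libraries, 12 below both and 11 between them, beside 41.3% and 42.6% of all genes tested above and below. Rbm12 was at 6.70 and 5.74 scaled FPKM and at 9.93 (0.60, SE 0.17, limma adjusted p = 0.0559). Rbm43 was at 5.81 and 5.46 and at 3.53 (-0.55, limma adjusted p = 0.0514), and Rbm45 at 7.47 and 8.40 and at 5.31 (-0.50, limma adjusted p = 0.0819). Rbm17, the 3′ splice site factor SPF45, had the lowest difference of the family, -0.58, but its lymphoid values of 14.7 and 21.5 were far apart beside 11.6 in the tumour library (limma adjusted p = 0.158). Rbm38, a p53 target, was at 16.2 and 15.4 and at 12.0. Both m6A writer adaptors lay above both lymphoid libraries, Rbm15 at 7.23 and 8.26 and at 9.84 and Rbm15b with a difference of 0.23. Rbm48 had a difference of 0.24.

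The 10 genes under the filter were Lsm11, Rbm11, Rbm20, Rbm24, Rbm31y, Rbm44, Rbm46, Rbm47, Snrpn and Srsf12. Rbm31y was at 0 in every library. Rbm20, the titin splicing factor of muscle, was at 0.0398 and 0.0770 scaled FPKM and at 0.931 in the tumour library, and Rbm47, known from epithelia, at 0.0423 and 0.0596 and at 0.550. Rbm24, another muscle factor, was at 0.704 and 0.730 and at 1.29. These rested on about 8.59, 4.87 and 7.50 tumour fragments, beside a receptor-gene level of 0.261 scaled FPKM. Srsf12, Rbm46 and Rbm11 were at 0.281, 0.298 and 0.203 in the tumour library, about that level. No test was made of these genes.

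The called genes were among those with few tumour fragments. Over the 112 tested genes the median number of fragments behind the tumour value was about 50.4, and Lsm1, Lsm10, Lsm2, Snrnp25 and Snrnp35 had fewer than 10. The 6 called genes had at most 38.7. When the counting error of the tumour value was added to the limma fit, 0 splicing genes were called, beside 3.48% of the 9714 genes with a length. At an unadjusted p under 0.05 there were 4, for which the share of all genes is not given here. The limma adjusted p values of the 6 genes then lay between 0.275 (Snrpe) and 0.485 (Snrpa). Snrpe, Snrpb, Lsm3, Snrpa and Sf3b5 rested on about 20.5, 38.7, 10.96, 12.5 and 29.5 tumour fragments, against 431, 766, 234, 253 and 184 in lymphoid library 2.

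FPKM is least certain for short transcripts. Of the tested genes 14 had a principal transcript under 1000 nt. They were Lsm2, Lsm3, Lsm4, Lsm5, Lsm7, Lsm10, Sf3b5, Snrnp25, Snrnp27, Snrpc, Snrpd1, Snrpe, Snrpf and U2af1l4. Their median difference was -0.08 and that of the 98 longer genes -0.05, but the SD was 0.53 against 0.32. Over all genes tested the medians were -0.13 and -0.00024, and the SDs 1.52 and 0.62. Among the short splicing genes 3 were called (21.4%), and 38.3% of the 1071 short genes of all genes tested. Among the longer splicing genes 3 were called (3.06%), and 19.7% of 8643. Short splicing genes rested on a median of 15.4 tumour fragments and longer ones on 64.8. Under 700 nt there were 4 (Lsm3, Lsm5, Lsm7 and Snrpe), with a median of -0.72. The 585 genes under 700 nt of all genes tested had a median of -0.29, so lower values of short genes were not particular to splicing genes. Across the 112 genes Pearson's r of the difference with log2 length was 0.08, and with log2 tumour fragments 0.15, given as a description over genes that share 3 libraries. Sf3b5 has annotated lengths of very different size, and the shorter, 734 nt, was used.

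**Figure D4:**
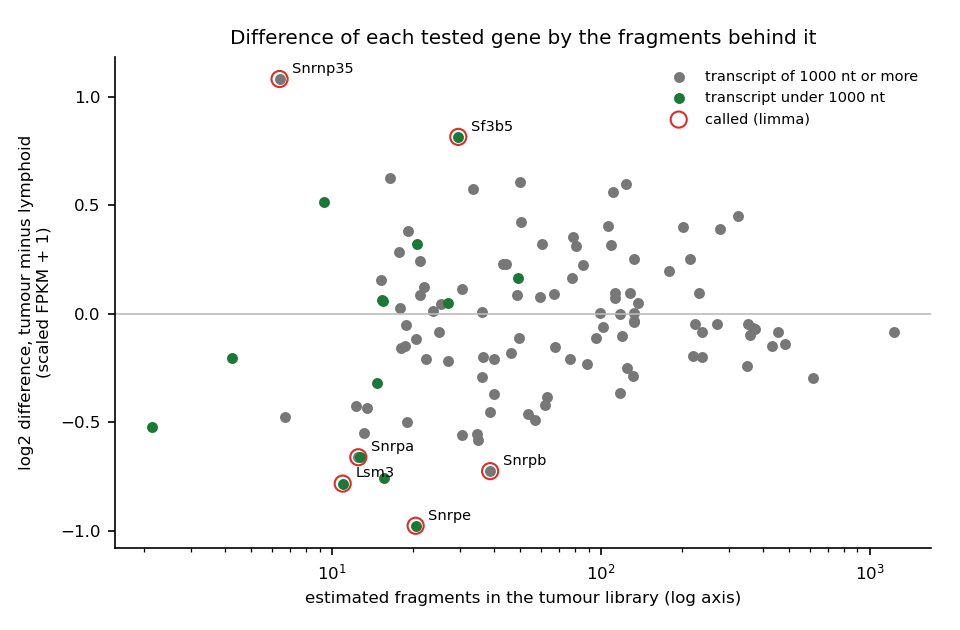
Log2 difference of each of the 112 tested genes against the estimated number of fragments behind its tumour value (log axis), with genes under 1000 nt in green and called genes circled in red. All 6 called genes lie at or below 38.7 fragments, and the points narrow to the right.

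The lymphoid libraries also differed from each other. Lymphoid library 2 lay above library 1 for 76 of the 112 genes (67.9%), against 46.3% of all genes tested, and the median difference between these libraries was 0.15 for the splicing genes and -0.02 for all genes tested. They lay more than 1.5-fold apart for 7 genes (6.25%, against 7.78%), namely Hnrnpm, Lsm7, Prpf38b, Rbm25, Snrnp25, Snrnp70 and Srsf4. Prpf38b, at 22.7 and 43.3 scaled FPKM and at 37.6 in the tumour library, and Srsf4, at 9.36 and 17.4 and at 9.11, were the most unequal. For Srsf4 the tumour value was 0.973 times that of lymphoid library 1 and 0.524 times that of library 2. Median differences against each lymphoid library were 0.04 and -0.12 over the 112 genes, of opposite sign, and -0.34 and -0.41 for LSM. For snRNP genes they were 0.11 and -0.24 and for hnRNP genes 0.05 and -0.17, so that the order of snRNP and hnRNP depended on the lymphoid library.

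**Figure D5:**
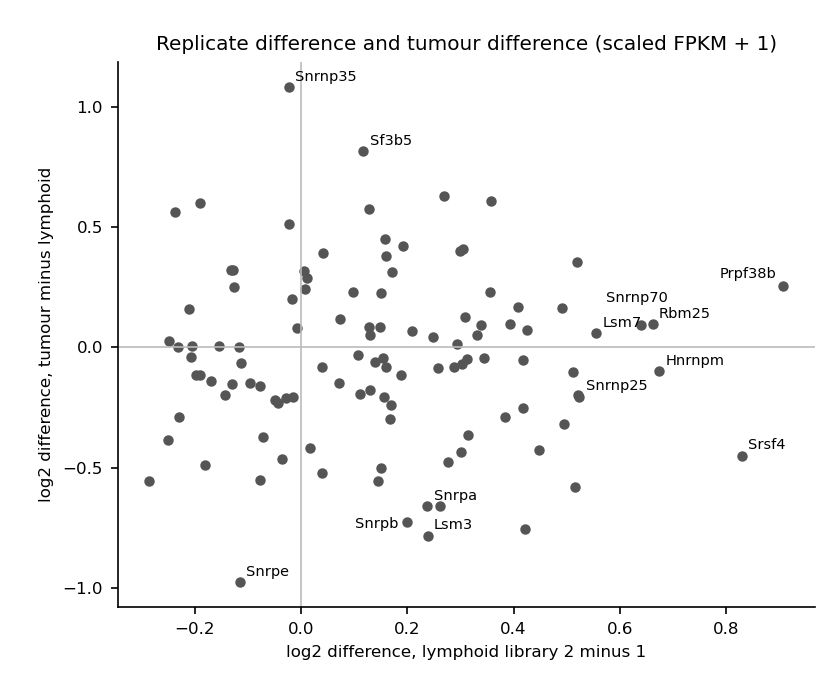
Log2 difference between the lymphoid libraries (2 minus 1) on the x axis and between the tumour library and their mean on the y axis, 1 point per tested gene. More points lie right of 0 than left (76 of 112). Of the called genes, Snrpe, Snrnp35 and Sf3b5 lie at -0.11, -0.02 and 0.12 on the x axis. Snrpb, Snrpa and Lsm3 lie at 0.20, 0.24 and 0.24. This difference enters the SE behind each call.

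Near-identical copies affect the reading of several members. Of the 122 genes 46 share a stretch at least 95% identical with another annotated gene, 25 of them with a pseudogene. Hnrnpa3 had 26 such genes, Hnrnpa1 9, Hnrnpf 8, Rbm3 and Srsf3 4 each, and of the called genes Snrpe 1 and Snrpa 2. Snrpf and Sf3a2 overlap in sequence with their neighbours Ccdc38 and Plekhj1. How fragments were divided among these is not given in the sources used here, so their values are uncertain.

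Other splicing genes, from a list of 141 that the rule does not name, gave 7 higher and 5 lower calls among 130 tested (9.23%, against 21.9% of all genes tested), with a median difference of 0.01. In the Prp19 complex and its partners, Isy1 was at 10.6 and 14.1 scaled FPKM and at 37.7 and rose by 1.55 (SE 0.22, limma adjusted p = 0.00804). It was also the only one called with counting error (limma adjusted p = 0.0284), a value that rests on its long annotated transcript. Ppie, a spliceosomal cyclophilin, was at 5.36 and 5.03 and at 1.41 and fell by 1.36 on the log2 scale, on about 3.16 tumour fragments. Cwc25 and Zfp830 were higher, by 0.86 and 0.69, and Plrg1 lower, with -0.74, on about 46.3, 18.1 and 11.6 tumour fragments. The called genes of this mixed list moved in both directions.

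The SMN complex loads Sm rings onto snRNA, and 2 of 11 tested genes of the list were called (18.2%, beside 21.9% of all genes tested). Smn1 was at 7.38 and 7.95 scaled FPKM and at 14.8, a difference of 0.87, and Gemin2, its partner, at 2.46 and 2.63 and at 4.98, a difference of 0.76. Both lay above both lymphoid libraries, while the median of the list was -0.19. Smn1 and Gemin2 rested on about 34.2 and 14.9 tumour fragments. Of the exon junction and SR-related genes, Tra2a (0.87) and Sap18 (0.64) were higher. The SR kinase gene Clk2 was at 11.4 and 13.5 and at 6.14, a difference of -0.91, and Ilf2 and Mbnl3 were lower, with -0.65 and -0.63. Helicases and branch-point factors had 0 calls by limma in 13 and 17 tested genes.

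Promoters of 102 of the 122 genes had an entry in the RefSeq table. The ETS core CCGGAAG, read on both strands in the 250 bases before the start, occurred in 22.5% of them, in 16.4% of 7175 tested genes with an entry and in 7.05% of all 27025 promoters. By family it was in 5 of 6 SF3, 4 of 11 SR, 5 of 16 snRNP, 2 of 11 PRPF, 4 of 30 RBM, 2 of 17 hnRNP, 1 of 9 LSM and 0 of 2 U2AF promoters. The CCAAT box occurred in 45.1%, 37% and 34.5%, and by family ran from 3 of 11 SR to 12 of 17 hnRNP promoters. The GC box occurred in 56.9%, 60.2% and 32.9%, and by family ran from 11 of 30 RBM to 10 of 11 SR promoters, so that for this motif splicing genes lay closer to the tested genes than to all promoters. The NRF1 core GCATGCGC occurred in 4.9%, 5.24% and 2.32%. The letters of the TATA box occurred in 10.8%, 5.84% and 13%, and those of the E-box in 7.84%, 8.81% and 6.05%.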

How the data were processed

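RNA was sequenced from CD4+ T cells, with 2 lymphoid libraries and 1 tumour library. Per the labels' protocols, stranded libraries were made from total RNA after ribosomal RNA removal. The submitters' processing notes list kallisto, DESeq2 and mm10 with no version or role. Which program and annotation made the values is not given in the sources used here. FPKM is the unit inferred for what the authors deposited, from the column style and from sums that differ between libraries. All 3 value columns were assigned to a sample.

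Members and lists were chosen with earlier results of these data known. Size factors were medians of ratios over genes whose mean reached 1 FPKM and whose value was above 0 in every library. All 9800 genes whose mean reached 1 FPKM were tested with limma 3.58.1 (R 4.3.3), with a trend in the variance, on log2(scaled FPKM + 1). P-values were adjusted by Benjamini-Hochberg and called under 0.05, with 1 residual degree of freedom from the lymphoid pair. No count test suits these values. The script was tested on simulated data.

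For the depth, 1 fragment was taken as the product of FPKM and length that most low genes share (within 3%), with transcript lengths from GENCODE release M21 limited to the RefSeq gene. Estimated fragments scale with these lengths, and their errors cover counting only. The receptor background left out the 2% of genes with the highest mean. Near-identical genes were found with BLAST 2.17.0.

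Named genes were, in each family, the called genes, those 2-fold from both lymphoid libraries, the 3 largest rises and falls, the most abundant gene and a list of genes of interest, and every called gene of the other splicing list. Ratio pairs, Ptprc, Hnrpdl, genes under the filter and remaining members of a complex were picked after values had been seen. Other settings were scalings, pseudocounts, filters, counting error, summed rows, fold and length limits, each lymphoid library left out and, added after seeing the data, background subtraction and the limit on transcript length.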

Additional observations from a re-analysis of the deposited data

How the results depend on the processing

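Scaling decided the direction of most differences. As deposited, 0 splicing genes were called higher and 106 lower, and 0 and 65 were 2-fold higher and lower; in the other list 0 were higher and 112 lower. Under that setting Sf3b5, Cwc25, Gemin2, Sap18, Smn1, Tra2a and Zfp830 changed sign, to -0.29, -0.14, -0.16, -0.19, -0.20, -0.24 and -0.27. With library totals 42 were called higher, 0 lower and 15 were 2-fold higher, and in the other list 54 and 1. The median difference of all genes tested was 0.62 under that setting. Size factors from abundant genes without small RNA gave 6 higher calls and a pseudocount of 5 gave 5, among them Prpf38a, Prpf40b and Rbm12. Without a filter 9 were called higher and 2 lower, and 6 and 1 were 2-fold higher and lower. With a mean of at least 5 FPKM 0 were called higher and 1 lower (Snrpe), 0 were 2-fold higher, and the other list kept 2 higher and 0 lower. Counting error left 0 and 0 calls, and 1 and 0 in the other list, and background subtraction gave 4 higher calls. The 1.5-fold threshold gave 4 higher and 7 lower, beside 15.6% and 12.3% of all genes tested. As deposited, 4.74% of all genes tested were called higher and 77.8% lower. For the other scalings, pseudocounts, filters and background subtraction, and for 2-fold counts outside the main setting, shares of all genes tested are not given here. Those counts therefore cannot be set against other genes. Snrpe was called under each of these tested settings other than library totals and counting error, while Snrpa, called as deposited, was lost with both pseudocounts, both filters, both other scalings, background subtraction and counting error. With a mean of at least 5 FPKM Sf3b5, Lsm3 and Snrpb were lost as well (limma adjusted p = 0.0527, 0.0752 and 0.0899).

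Family medians, minus that of all genes tested, were as deposited -0.34 for SR, -0.26 for hnRNP, -0.22 for SF3, 0.20 for U2AF, -0.26 for LSM and -0.14 for RBM, and 0.054 for RBM with library totals. Without a filter they were -0.31, -0.27, -0.33, 0.11, -0.56 and -0.20 in the same order, and -0.092 for PRPF. For LSM they were -0.61 and -0.19 with pseudocounts of 0.1 and 5 and -0.53 after background subtraction, and for U2AF 0.24 with a pseudocount of 5. Leaving out either lymphoid library gave -0.20 to -0.046 for SR, -0.11 to -0.023 for SF3, 0.00702 to 0.154 for PRPF and -0.40 to -0.34 for LSM, with 1 to 2 genes 2-fold higher and 1 lower. Short minus longer splicing genes was -0.03, and -0.67 at 700 nt. Over all genes tested, those under 700 nt had a median of -0.29 and longer ones of -0.00037. No paired analysis was possible because the tumour group has 1 library without a replicate number. The cause of these shifts was not tested. The 1 residual degree of freedom and the depth of the tumour library limit what could be detected.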
